A study of Mus musculus with 20 samples.

Results

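Mucins are the heavily glycosylated proteins that make up the gel and the cell-surface coat of the airway. The 8 genes described here were taken by symbol from the deposited table of 38355 genes: the secreted, gel-forming mucins Muc5ac and Muc5b, and the membrane mucins Muc1, Muc4, Muc13, Muc15, Muc16 and Muc20. All 8 passed the filter on low values, each with 0.5 CPM or more in at least 8 labelled-knockout and 11 wild-type libraries. Primary mouse tracheal epithelial cells had been grown on porous membranes and differentiated with their upper surface in air, and polyA RNA was sequenced. The groups were cells of global p73 knock-out mice on days 0, 4, 7 and 14 of air exposure (2 libraries a day), and cells of wild-type mice on the same days (3 libraries a day). All groups shared the air-liquid interface treatment. The series text calls the cultures independent biological replicates and speaks of 3 per genotype.

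Gel-forming mucins are stored in secretory granules of goblet and club cells and swell on release into the mucus that cilia carry out of the airway. Muc5b is needed in mice for mucociliary clearance, while Muc5ac rises in allergic and other inflamed airways. Membrane mucins stay anchored to the apical surface, where their glycosylated ectodomains form a barrier and their short cytoplasmic tails can signal. In a bulk culture, fewer cells of a type and less RNA per cell cannot be told apart.

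Libraries held between 3.27 M and 31.5 M recovered reads, with the shallowest in wild type at day 4 and the deepest in labelled knockout at day 0. Trp73, which encodes p73, had 49.2 and 48.7 CPM in the labelled-knockout libraries at day 0, against 2.70, 2.20 and 1.07 CPM in wild type, and from day 4 on it spanned 16.7 to 35.1 CPM in labelled knockout against 9.83 to 34.9 CPM in wild type. Which part of the gene was removed is not in the labels, so gene-level reads do not check the deletion, and genotypes are given as labelled. A title with day 3 is carried by both day 4 libraries numbered 1, whose remaining labels give day 4, the day used here. All 11 basal and all 11 secretory and club cell markers listed had reads in every library. Differences are log2 differences ± SE from limma on log2(CPM + 0.5), a scale that understates the change of low genes, and a gene was called at a Benjamini-Hochberg adjusted p under 0.05 over 15738 genes.

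Which mucins were most abundant? Per kb of exon, Muc1, a small membrane mucin of many epithelia, stood first in each of the 8 groups, at 388 ± 199.8 to 667 ± 171 CPM per kb in labelled knockout and 425 ± 105 to 671 ± 122 CPM per kb in wild type (mean ± SD, lowest and highest day). Below it the order depended on genotype. In labelled knockout Muc4 was second on every day, with 52.7, 35.9, 35.5 and 25.8 CPM per kb on days 0, 4, 7 and 14. In wild type Muc4 was second at day 0 (59.1 CPM per kb) and day 14 (18.6), and Muc5b was second at day 4 (45.3 against 19.1 for Muc4) and day 7 (29.98 against 21.8). Muc5b held 5.33 ± 0.503, 16.6 ± 9.47, 8.24 ± 0.359 and 4.73 ± 1.43 CPM per kb in labelled knockout on days 0, 4, 7 and 14, against 44.2 ± 2.97, 45.3 ± 3.70, 29.98 ± 3.10 and 11.7 ± 3.32 in wild type.

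The lower places also differed by genotype. Muc13 held 4.03 ± 3.03, 6.30 ± 0.311, 11.3 ± 1.27 and 7.72 ± 0.196 CPM per kb in labelled knockout, and 0.946 ± 0.237, 1.27 ± 0.695, 1.69 ± 0.240 and 1.51 ± 0.373 in wild type. In labelled knockout it ranked above Muc5b at days 7 and 14. Muc15 was last in wild type on all 4 days and in labelled knockout at day 0, and Muc5ac was last in labelled knockout on the other days. Neighbours in the order whose libraries overlapped were Muc4 and Muc20 at day 0 in both genotypes. In labelled knockout they were also Muc5b and Muc13 at day 0, Muc5b with Muc20 and Muc15 with Muc5ac at day 4, and Muc13 and Muc20 at day 7. In wild type they were also Muc20 and Muc5b at day 0, Muc5ac and Muc13 at day 4, Muc4 and Muc5b at day 14, and Muc5ac and Muc15 at days 7 and 14. The libraries of the other neighbours did not overlap. Muc16 has no value per kb, because its deposited identifier (ENSMUSG00000032134) is not in the annotation used. The exon lengths come from that annotation, and the one behind the authors' counting may differ. Muc4 and Muc20 share 627 bp of exon, out of 4027 bp for Muc20, so their places may be affected by shared reads.

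**Figure D1:**
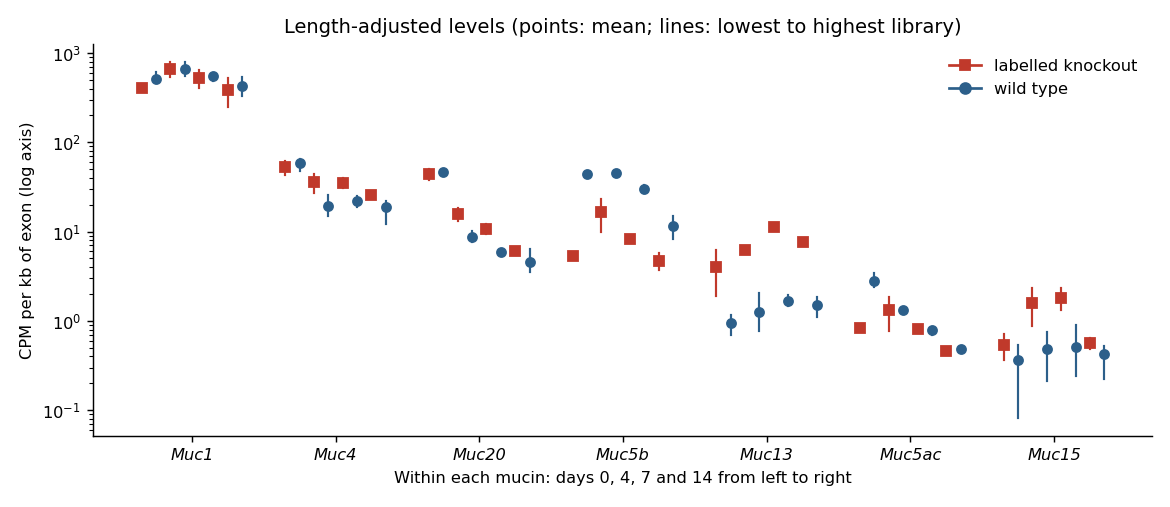
Mean CPM per kb of exon (log axis) of 7 mucins, with days 0, 4, 7 and 14 from left to right within each mucin. Squares are labelled knockout (n = 2) and circles wild type (n = 3), and lines run from the lowest to the highest library. Muc1 lies above every other mucin, Muc5b is lower and Muc13 higher in labelled knockout at each day.

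How did the secreted mucins differ between genotypes? Muc5b, the main gel-forming mucin of mouse airways (ENSMUSG00000066108, GRCm38 chromosome 7, 141839070 to 141873084, plus strand), was lower in labelled knockout on all 4 days. At day 0 its libraries held 74.4 and 85.1 CPM in labelled knockout, against 662, 617 and 706 CPM in wild type. At day 4 they held 149 and 349 CPM, against 705, 614 and 714 CPM in wild type. At day 7 they held 119.6 and 127 CPM in labelled knockout, against 403, 496 and 447 CPM in wild type. On these days every labelled-knockout library lay below every wild-type library, and the second day 4 knockout library was the highest of its genotype. At day 14 the levels were 55.7 and 85.9 CPM in labelled knockout against 123, 222 and 181 CPM in wild type, again with no overlap. The day 14 knockout libraries overlapped those of day 0, and the day 14 wild-type libraries lay below all others of their genotype.

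The differences for Muc5b were -3.05 ± 0.28 at day 0 (adjusted p 3e-05, 0.121-fold), -1.57 ± 0.28 at day 4 (0.00801), -1.85 ± 0.28 at day 7 (0.0029) and -1.29 ± 0.28 at day 14 (0.0138). The calls at days 0 and 7 held in every alternative run. The day 4 call was lost without labelled knockout day 4 replicate 1 (-0.95, adjusted p 0.148) or with the day 4 libraries alone (-1.57, 0.197), and the day 14 call without labelled knockout replicate 1 (-0.98, 0.175) or wild type replicate 2 (-1.10, 0.0764) or 3 (-1.25, 0.0609).

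Muc5ac, the second airway gel-forming mucin, lies 19.8 kb upstream of Muc5b on the same strand (ENSMUSG00000037974, chromosome 7, 141788972 to 141819231), in a cluster with Muc6 and Muc2. At day 0 it had 8.17 and 9.61 CPM in labelled knockout, against 25.6, 27.1 and 36.6 CPM in wild type. The groups did not overlap, and the difference was -1.67 ± 0.26 (adjusted p 0.00178), a call lost when the 5 libraries of day 0 were fitted alone (-1.68, 0.102). From day 4 on the genotypes overlapped. Levels were 8.35 and 19.9 CPM in labelled knockout against 13.3, 14.1 and 14.9 CPM in wild type at day 4. At day 7 they were 9.27 and 8.38 against 9.21, 7.38 and 8.61 CPM, and at day 14 they were 5.23 and 4.77 against 5.10, 5.31 and 5.32 CPM. The differences of -0.12 ± 0.26, 0.07 ± 0.26 and -0.06 ± 0.26 did not pass (adjusted p 0.988, 1 and 0.992).

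**Figure D2:**
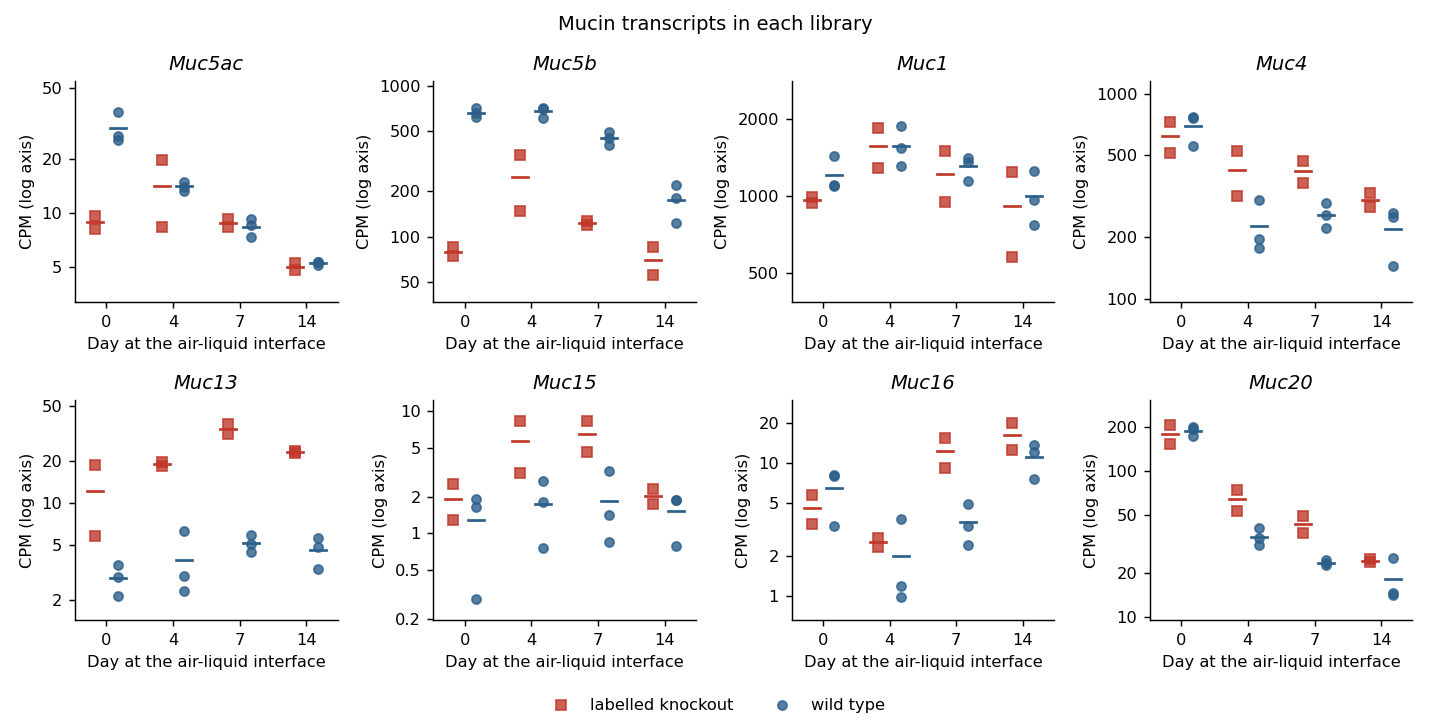
Level of each mucin in CPM (log axis) in every library by day, with labelled knockout as squares to the left and wild type as circles to the right, and horizontal bars at the group means. Muc5b is below wild type and Muc13 above it on each day without overlap, and Muc20 declines in both genotypes.

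The balance of the secreted pair was also set side by side. Per kb of exon, Muc5b exceeded Muc5ac by 6.54 and 6.36 times in labelled knockout at day 0, against 18.6, 16.3 and 13.9 times in wild type. At day 4 the ratio was 12.8 and 12.6 in labelled knockout, against 38.2, 31.3 and 34.4 in wild type. At day 7 it was 9.27 and 10.9 against 31.4, 48.2 and 37.3, and at day 14 it was 7.65 and 12.9 against 17.3, 29.96 and 24.5. Every labelled-knockout ratio lay below every wild-type ratio of its day, and the geometric means were 0.399, 0.368, 0.262 and 0.427 times those of wild type. An exact permutation test of the log2 ratio gave a two-sided p of 0.1 on each of the 4 days, the smallest that 2 against 3 libraries allow. The second day 4 knockout library held more of both secreted mucins than the first and a similar ratio.

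**Figure D3:**
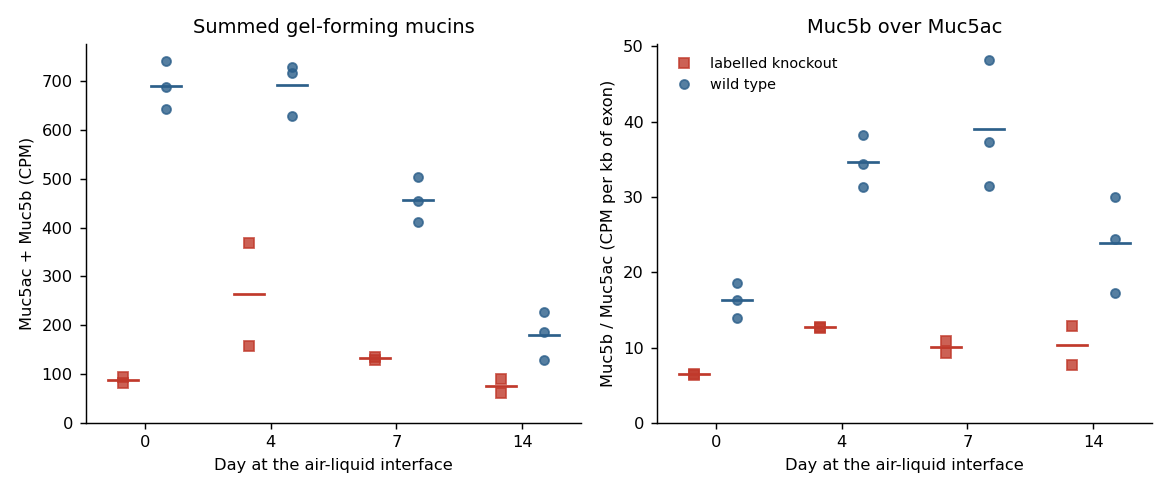
Left, the sum of Muc5ac and Muc5b in CPM by day and library. Right, the ratio of Muc5b to Muc5ac, each in CPM per kb of exon. Squares on the left of each day are labelled knockout (n = 2), circles on the right wild type (n = 3), and bars are means. On both panels each labelled-knockout library lies below each wild-type library of its day.

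Among the membrane mucins, Muc13 differed most between genotypes. Muc13, a mucin with epidermal growth factor-like domains best known from the gut (ENSMUSG00000022824, chromosome 16, 33794037 to 33819934, plus strand), was higher in labelled knockout on all 4 days. Its libraries held 18.8 and 5.73 CPM in labelled knockout at day 0, against 2.92, 3.57 and 2.14 CPM in wild type. At day 4 they held 19.8 and 18.5 CPM, against 2.33, 6.27 and 2.99 CPM in wild type. The labelled-knockout libraries lay above wild type on both days, although the first day 0 knockout library held much more than the second. At day 7 the levels were 37.1 and 31.6 CPM in labelled knockout against 5.07, 5.88 and 4.42 CPM in wild type. At day 14 they were 23.0 and 23.9 CPM in labelled knockout against 3.36, 4.84 and 5.59 CPM in wild type. On these later days the groups were far apart and the knockout libraries close to each other.

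The differences for Muc13 were 1.72 ± 0.40 at day 0 (adjusted p 0.0299), 2.28 ± 0.40 at day 4 (0.00648), 2.64 ± 0.40 at day 7 (0.00284) and 2.26 ± 0.40 at day 14 (0.00334). The calls at days 7 and 14 held in every alternative run. The day 0 call was lost without labelled knockout replicate 1 (0.91, adjusted p 0.441) or wild type replicate 3 (1.54, 0.137), with library size scaling (1.66, 0.0501) and with the day 0 libraries alone (1.70, 0.419). The day 4 call was lost without either knockout library (2.23, 0.0512 and 2.33, 0.106) and with the day 4 libraries alone (2.28, 0.107). An antisense gene, Gm15657, shares 184 bp of exon with Muc13 and reached 0.622 CPM at most.

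Muc13 has 2 annotated starts in the RefSeq promoter table for GRCm38.p6, and sequence before each is shown because it is the member that was higher on every day. The first stretch is chr16:33793787-33794036 and the second chr16:33794239-33794366, both on the plus strand and ending before the next annotated exon. Capitals mark a match to the AP-1 motif TGANTCA.
Muc13 first start: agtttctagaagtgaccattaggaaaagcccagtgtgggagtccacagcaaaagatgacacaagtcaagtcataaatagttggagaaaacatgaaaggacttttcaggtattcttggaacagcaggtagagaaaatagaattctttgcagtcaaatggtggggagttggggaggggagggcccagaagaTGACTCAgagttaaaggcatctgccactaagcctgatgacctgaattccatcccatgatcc
Muc13 second start: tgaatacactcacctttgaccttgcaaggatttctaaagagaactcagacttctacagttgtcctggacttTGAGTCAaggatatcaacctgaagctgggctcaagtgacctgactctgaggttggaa
The matches start 61 and 179 bases before their starts. Of 32851 mouse promoters of 300 bases in the same table, 7.81% hold this motif on either strand, and the windows of Muc1, Muc4, Muc16 and Muc20 do not. Muc5ac, Muc5b and Muc15 were not in the table.

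Muc4 and Muc20 are neighbours on chromosome 16 and were examined together. Muc4, the large membrane mucin that carries a ligand domain for the receptor ErbB2 (ENSMUSG00000079620, 32735886 to 32782391, plus strand), and Muc20 (ENSMUSG00000035638, 32777419 to 32797435, minus strand) overlap by 4973 bp on opposite strands, of which 627 bp is exon of both. The strand setting of the counting is not given in the sources used here, so part of their reads may not be told apart. Over the 20 libraries their log2 levels had a Pearson correlation of 0.866, the highest of any pair of the 8 mucins. The libraries share genotype, day and scaling, and the value is a description.

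Muc4 had 726 and 512 CPM in labelled knockout at day 0, against 767, 762 and 557 CPM in wild type. At day 4 it had 318 and 526 CPM, against 176, 303 and 195 CPM in wild type, and at day 7 it had 468 and 367 CPM, against 292, 257 and 220.4 CPM. At day 14 it had 280.2 and 326 CPM in labelled knockout against 144.5, 251 and 262 CPM in wild type. The genotypes overlapped at day 0 and lay apart, with labelled knockout higher, on the other 3 days. The differences at days 4, 7 and 14 were 0.90 ± 0.29, 0.70 ± 0.29 and 0.51 ± 0.29, and none passed (adjusted p 0.228, 0.387 and 0.560).

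Muc20 had 153 and 205 CPM in labelled knockout at day 0, against 192, 172 and 198 CPM in wild type. At day 4 it had 53.4 and 74.7 CPM, against 34.6, 40.8 and 31.1 CPM in wild type, and at day 7 it had 37.8 and 49.4 CPM, against 23.4, 24.7 and 22.8 CPM. At day 14 it had 24.98 and 23.8 CPM in labelled knockout and 14.8, 14.3 and 25.5 CPM in wild type. The groups lay apart at days 4 and 7 with labelled knockout higher, by 0.83 ± 0.22 and 0.86 ± 0.22, and overlapped at days 0 and 14. Neither difference passed with limma (adjusted p 0.107 and 0.0699). With replicate number as a block the day 7 difference passed (0.91, adjusted p 0.0433), and DESeq2 on the recovered reads called both days (0.0436 and 0.0140).

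Stretches before the RefSeq starts of this pair (GRCm38.p6) are shown because its correlation was the highest among the mucins. They are Muc4 at chr16:32735636-32735885 on the plus strand and Muc20 at chr16:32797436-32797685 read on the minus strand. Capitals mark a TATA motif (TATAAA) in Muc4 and a forkhead motif (TGTTTAC, here on the other strand) in Muc20.
Muc4: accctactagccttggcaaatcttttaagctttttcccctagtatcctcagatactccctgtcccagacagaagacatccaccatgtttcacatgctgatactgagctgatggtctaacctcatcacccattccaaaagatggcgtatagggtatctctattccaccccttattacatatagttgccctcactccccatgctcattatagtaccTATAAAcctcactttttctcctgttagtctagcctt
Muc20: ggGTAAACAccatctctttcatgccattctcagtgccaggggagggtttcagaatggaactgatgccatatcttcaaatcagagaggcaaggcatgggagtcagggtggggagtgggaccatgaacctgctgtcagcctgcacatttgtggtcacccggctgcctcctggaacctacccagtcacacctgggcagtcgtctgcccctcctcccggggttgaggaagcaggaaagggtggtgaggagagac
The TATA motif begins 36 bases before the Muc4 start and is held by 13.6% of all promoters in the table. The forkhead motif begins 248 bases before the Muc20 start and is held by 3.65%. No motif searched was found in both windows. The other motifs searched on both strands, with the share of all promoters that hold them, were TGTTTGC (5.07%), an NF-kB motif (1.63%), TTCNNNGAA (8.30%), CACCTG (20.2%) and a p53 family half-site (8.36%). Of these, the NF-kB motif (at -229 from the start) and TTCNNNGAA (at -140) were also in the window of the first Muc13 start. CACCTG was in the windows of Muc20 (at -66) and Muc1 (at -234 and -70), and TATAAA also in that of Muc1 (at -31). TGTTTGC and the half-site were in none of the windows searched.

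The remaining membrane mucins were not called between genotypes by limma. Muc1 (ENSMUSG00000042784, chromosome 3, 89229057 to 89233381, plus strand) had 940.4 and 991 CPM in labelled knockout at day 0, against 1098, 1099 and 1430.2 CPM in wild type, and its groups overlapped on the later days. Its differences were -0.31, -0.02, -0.12 and -0.21 on days 0, 4, 7 and 14, each ± 0.29. Muc16, a very large tethered mucin of the ocular and airway surface, had 15.4 and 9.16 CPM in labelled knockout at day 7, against 4.92, 2.41 and 3.35 CPM in wild type. The groups lay apart on that day alone, by 1.66 ± 0.46, which limma did not call (adjusted p 0.0942) and DESeq2 did (0.0225). On the other days Muc16 overlapped, at 3.44 to 5.73 CPM in labelled knockout and 3.35 to 8.09 CPM in wild type at day 0, 2.33 to 2.72 and 0.983 to 3.81 CPM at day 4, and 12.4 to 19.9 and 7.59 to 13.6 CPM at day 14.

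Muc15, a small membrane mucin that lies within Ano3 on the opposite strand (ENSMUSG00000050808, chromosome 2, 110721340 to 110739527), had 4 reads in its lowest library. It had 3.15 and 8.29 CPM in labelled knockout at day 4, against 0.753, 2.70 and 1.79 CPM in wild type, and 4.68 and 8.30 CPM at day 7, against 0.851, 3.22 and 1.41 CPM. Labelled knockout was higher without overlap on both days and overlapped wild type at days 0 and 14. The differences of 1.43 ± 0.56 and 1.67 ± 0.56 did not pass (adjusted p 0.413 and 0.202), and with replicate number as a block they did (1.54, adjusted p 0.0442, and 1.78, 0.0192). Ano3 shares 61 bp of exon with Muc15 and had 0.074 to 2.36 CPM.

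In all, limma called 3 of the 8 mucins between genotypes at day 0, where 2.2% of all tested genes were called. It called 2 at day 4 (1.15% of all genes), 2 at day 7 (1.64%) and 2 at day 14 (4.21%). From day 4 on the 2 were Muc5b, lower, and Muc13, higher. With replicate number as a block the day 7 count was 4 (2.13% of all genes), as it was with DESeq2 (3.33%) and with the day 7 libraries alone (3.03%). With the libraries of one day alone it was 1 at day 0 (0.0571%) and 0 at day 4 (0.415%; 5 at an unadjusted p under 0.05). The authors' deposited table comes from their own comparison within each day. It gives 3, 3, 6 and 2 of the 8 mucins an adjusted p under 0.05 on days 0, 4, 7 and 14. The share of all genes under 0.05 in that table was not counted, so these counts have no background beside them. The 6 at day 7 in the authors' deposited table include Muc4 (log2 fold change 0.71, adjusted p 0.00895), Muc15 (1.62, 0.0146), Muc16 (1.69, 8.16e-05) and Muc20 (0.89, 0.000447).

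**Figure D4:**
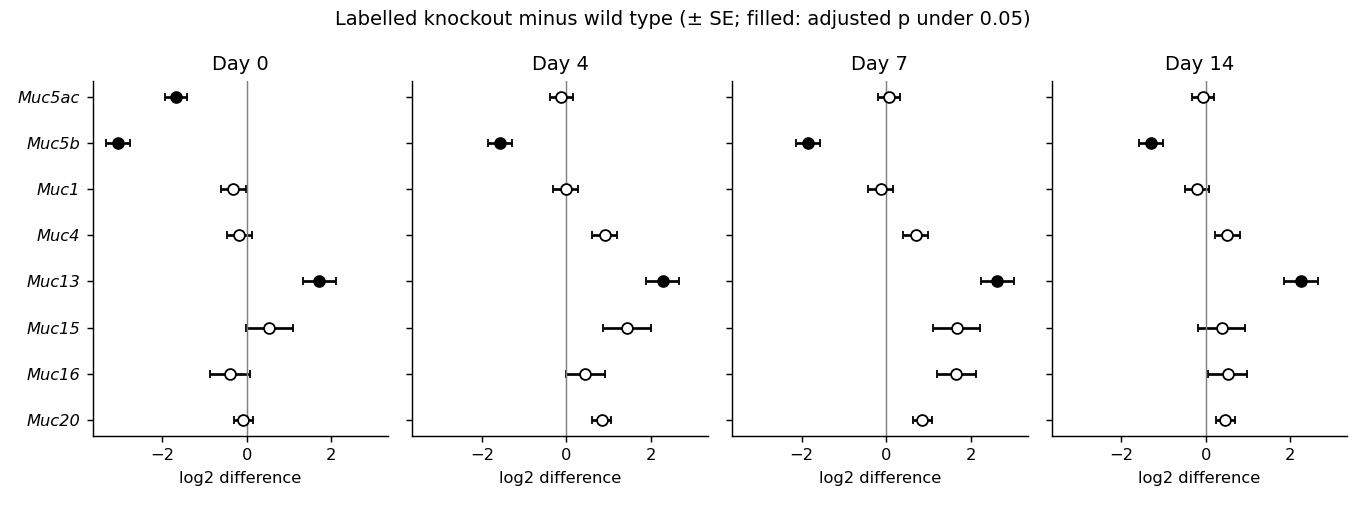
Log2 difference of labelled knockout minus wild type for each mucin on each day, with bars of ± 1 SE from limma. Filled points have an adjusted p under 0.05. Muc5b is to the left of 0 and Muc13 to the right on all 4 days, and Muc5ac is away from 0 at day 0 and near it later.

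Marker lists of cell types and states also differed in their summed levels. Of all genes, 1.8%, 0.915%, 0.82% and 0.413% were called higher in labelled knockout on days 0, 4, 7 and 14. Of the 16 squamous markers 14 were tested, and 10, 6, 4 and 4 were called higher on these days. They summed to 5271 to 8815 CPM in labelled knockout and 751 to 1437 CPM in wild type at day 0, and to 1669.5 to 1707 and 395 to 538 CPM at day 14. Of the 21 inflammation genes 19 were tested, and 5, 3, 5 and 0 were called higher, among them Il1a, Tnf and Cxcl1 on days 0, 4 and 7. At day 14, 3 of them had an unadjusted p under 0.05. Their sums overlapped at day 0 and lay apart later, at 1070.1 to 1549 CPM in labelled knockout against 748 to 871 CPM in wild type at day 4. At day 7 they were 1051 to 1441 against 740.2 to 748 CPM, and at day 14 they were 813 to 907 against 771 to 791 CPM. Of these sums Il13ra1 alone held 324 to 497 CPM over all libraries, and Cxcl5 held 27.0 to 2380 CPM. The sums therefore say little about the other genes of the list.

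The 11 secretory and club cell markers summed to 7176 to 15215 CPM in labelled knockout and 17498 to 22607 CPM in wild type at day 0. They overlapped at days 4 and 7, and summed to 49508 to 50130 and 51996 to 60296 CPM at day 14. Cyp2f2, Cbr2 and Aldh1a1 reached 29871, 22025 and 13720 CPM, and the next highest, Scgb3a1, 3706 CPM. This sum therefore says little about the other secretory and club cell markers. The 17 goblet products found summed to 5483 to 5539 CPM in labelled knockout and 11686 to 12600 CPM in wild type at day 0 and overlapped later, and Tff3 had no reads in any library. Among these products Reg3g alone spanned 4453 to 26715 CPM over all libraries, and the next highest, Bpifa1, 65.3 to 2692 CPM. The sum therefore says little about the other products. The 11 basal markers overlapped at day 0 and summed to 6287 to 7171 CPM in labelled knockout and 4144 to 5483 CPM in wild type at day 4, 6068 to 6228 and 3939 to 5935 CPM at day 7, and 5997 to 6334 and 3552 to 5049 CPM at day 14. The 16 multiciliated markers overlapped at days 0 and 4 and summed to 1495 to 1834 CPM in labelled knockout and 2497 to 3457 CPM in wild type at day 7, and to 1510 to 1664 and 2859 to 4020.1 CPM at day 14.

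The sum of the 10 gland markers found was higher in labelled knockout on all 4 days, at 12089 to 14921 against 9638 to 11167 CPM at day 0, with Bpifb9b at 0 throughout. Most of that sum was Ltf, at 11130 ± 1140 and 8285 ± 798 CPM at day 0, which was not called on any day. Of 6 gland markers tested, Sox9 was called higher and Dmbt1 lower at day 0, beside 2.2% of all genes called in either direction. The 7 fibroblast markers lay apart at days 4 and 7. They summed to 54.4 to 80.9 CPM in labelled knockout and 24.8 to 42.3 CPM in wild type at day 4. At day 7 the sums were 25.2 to 129 and 16.1 to 22.01 CPM. The 5 smooth muscle markers summed lower in labelled knockout at day 4, at 17.4 to 35.6 against 56.5 to 81.3 CPM. At day 7 they summed higher, at 23.4 to 35.8 against 6.71 to 17.3 CPM, and they overlapped at days 0 and 14. The 6 ionocyte markers lay apart at days 0, 4 and 14, at 12.3 to 21.1 and 21.6 to 26.6 CPM, 25.7 to 36.5 and 42.1 to 46.0 CPM, and 37.2 to 41.7 and 54.997 to 65.7 CPM, and Atp6v1c2 was called lower on all 4 days. Most of that sum was Atp6v1c2 and Cftr, at 6.68 to 57.8 and 3.67 to 18.3 CPM over all libraries. Foxi1, Ascl3, Atp6v0d2 and Stap1 reached at most 4.24, 2.41, 1.49 and 4.00 CPM. The 7 tuft markers summed lower in labelled knockout at day 0, at 32.4 to 82.2 against 84.9 to 188 CPM. At day 4 they held 66.9 to 79.6 against 83.5 to 126 CPM, and they overlapped later. Most of that sum was Dclk1, at 28.5 to 183 CPM over all libraries. The 6 neuroendocrine markers summed higher at days 7 and 14, at 8.84 to 12.3 against 4.18 to 6.83 CPM at day 7, and overlapped before.

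Among the 9 leukocyte genes Ptprc, Cd52, Tyrobp, Fcer1g, Cd3e and Cd79a stayed below 0.5 CPM in every library. Itgam averaged 31.75 ± 19 CPM in labelled knockout and 1.45 ± 0.633 CPM in wild type at day 4 (3.96 ± 0.52, adjusted p 0.000685), and 12.5 ± 8.97 and 0.446 ± 0.185 CPM at day 7 (3.60 ± 0.52, 0.00217). Cd68 spanned 8.68 to 85.7 CPM over all libraries and Lyz2, which airway epithelium also makes, 8.75 to 7213 CPM, and neither was called on any day. The list summed to 908 to 7277 CPM in labelled knockout and 668 to 1183 CPM in wild type at day 4, and the second knockout library was the higher of its pair on each day. The part of these cell states in the mucin levels was not tested.

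How did the mucins change with time in each genotype? Muc20 fell in both genotypes at every later day. In labelled knockout the changes from day 0 were -1.48 ± 0.25, -2.02 ± 0.25 and -2.83 ± 0.25 at days 4, 7 and 14 (adjusted p 0.000417, 1.39e-05 and 4.43e-07). In wild type they were -2.39 ± 0.20, -2.96 ± 0.20 and -3.38 ± 0.20 (adjusted p 2.79e-07, 1.11e-08 and 1.91e-09). Muc4 also fell in wild type, with changes of -1.65 ± 0.26, -1.43 ± 0.26 and -1.70 ± 0.26 (adjusted p 0.000159, 0.000364 and 5.59e-05). In labelled knockout it stood at -0.58 ± 0.32 and -0.56 ± 0.32 at days 4 and 7 (adjusted p 0.232 and 0.219) and fell by 1.01 ± 0.32 at day 14 (0.0218). That last call was lost with library size scaling (-0.84, 0.0576) and without labelled knockout day 0 replicate 1 (-0.76, 0.160) or day 14 replicate 1 (-0.90, 0.103) or 2 (-1.12, 0.0560).

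The secreted mucins took other courses. Muc5ac fell in wild type, with changes of -1.04 ± 0.24, -1.75 ± 0.24 and -2.38 ± 0.24 at days 4, 7 and 14 (adjusted p 0.00346, 1.83e-05 and 4.56e-07). In labelled knockout, which began lower, it stood at 0.52 ± 0.29, -0.01 ± 0.29 and -0.77 ± 0.29 (adjusted p 0.234, 0.990 and 0.0513), and at day 4 it passed without labelled knockout day 4 replicate 1 (1.12, 0.00789). Muc5b in wild type stood at 0.03 ± 0.25 and -0.56 ± 0.25 at days 4 and 7 (adjusted p 0.942 and 0.0974) and fell by 1.95 ± 0.25 at day 14 (1.01e-05). In labelled knockout it rose by 1.51 ± 0.31 at day 4 (adjusted p 0.00225), a call lost without labelled knockout day 4 replicate 2 (0.90, 0.0523). It stood at 0.63 ± 0.31 and -0.20 ± 0.31 at days 7 and 14 (0.154 and 0.674).

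The difference between genotypes in the change from day 0 was tested as an interaction. At day 14 it was 1.61 ± 0.37 for Muc5ac (adjusted p 0.0488) and 1.75 ± 0.40 for Muc5b (0.0471), with the larger fall in wild type. These 2 of 8 mucins stand beside 1% of all genes called. Both calls were lost in edgeR (0.103 and 0.116; 0.114% of all genes called) and without single libraries, where the adjusted p reached 0.168 for Muc5ac (without labelled knockout day 14 replicate 1) and 0.229 for Muc5b (without replicate 2 of that group). The Muc5b call was lost with each of the 10 libraries left out, and the Muc5ac call with each but wild type day 0 replicate 1. At days 4 and 7 limma called 0 of 8 mucins, beside 0.0191% and 0.152% of all genes, with 4 and 5 mucins at an unadjusted p under 0.05. edgeR also called 0 on both days (0.00635% and 0.0445% of all genes), and DESeq2 called 1 on each, Muc5ac (0.114% and 0.292%).

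Muc13 and Muc16 had their called rises in labelled knockout. Muc13 rose there by 1.67 ± 0.44 at day 7 (adjusted p 0.00933), a call lost without labelled knockout day 0 replicate 2 (0.85, 0.179) or day 7 replicate 1 (1.55, 0.0568), while wild type stood at 0.75 ± 0.36 (0.116). Without labelled knockout day 0 replicate 1, Muc13 also passed at day 4 (1.66, 0.0134) and day 14 (1.94, 0.00287). Muc16 rose in labelled knockout by 1.71 ± 0.51 at day 14 (adjusted p 0.0161) and fell in wild type by 1.56 ± 0.42 at day 4 (0.00996). The Muc16 rise was lost without labelled knockout day 0 replicate 2 (1.38, 0.125) or day 14 replicate 2 (1.38, 0.134). The fall was lost without wild type day 0 replicate 3 (-1.34, 0.0514), day 4 replicate 1 (-1.26, 0.0507) or day 4 replicate 3 (-1.37, 0.0527). Muc1 and Muc15 were not called against day 0 in either genotype, and for the mucins other than Muc5ac and Muc5b the difference in change between genotypes was not called on any day.

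Against day 0, limma called 2, 2 and 3 of the 8 mucins in labelled knockout at days 4, 7 and 14, where 20.1%, 26.7% and 32% of all genes were called. In wild type it called 4, 3 and 4, where 27%, 35.5% and 40.3% were called, and all of those mucins were lower than at day 0, as 13.3%, 16.4% and 18.5% of all genes were. Scaling by library size alone raised the median change of all genes by 0.16 and 0.15 in labelled knockout at days 7 and 14 and by 0.12 in wild type at day 7, and turned none of the called directions. With it the share of called genes that were higher was 56.3%, 62.5% and 58.3% in labelled knockout at days 4, 7 and 14 against 46.1%, 46.9% and 44.8% with the scaling used, and 62.7% and 64.8% in wild type at days 4 and 7 against 50.7% and 53.7%.

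**Figure D5:**
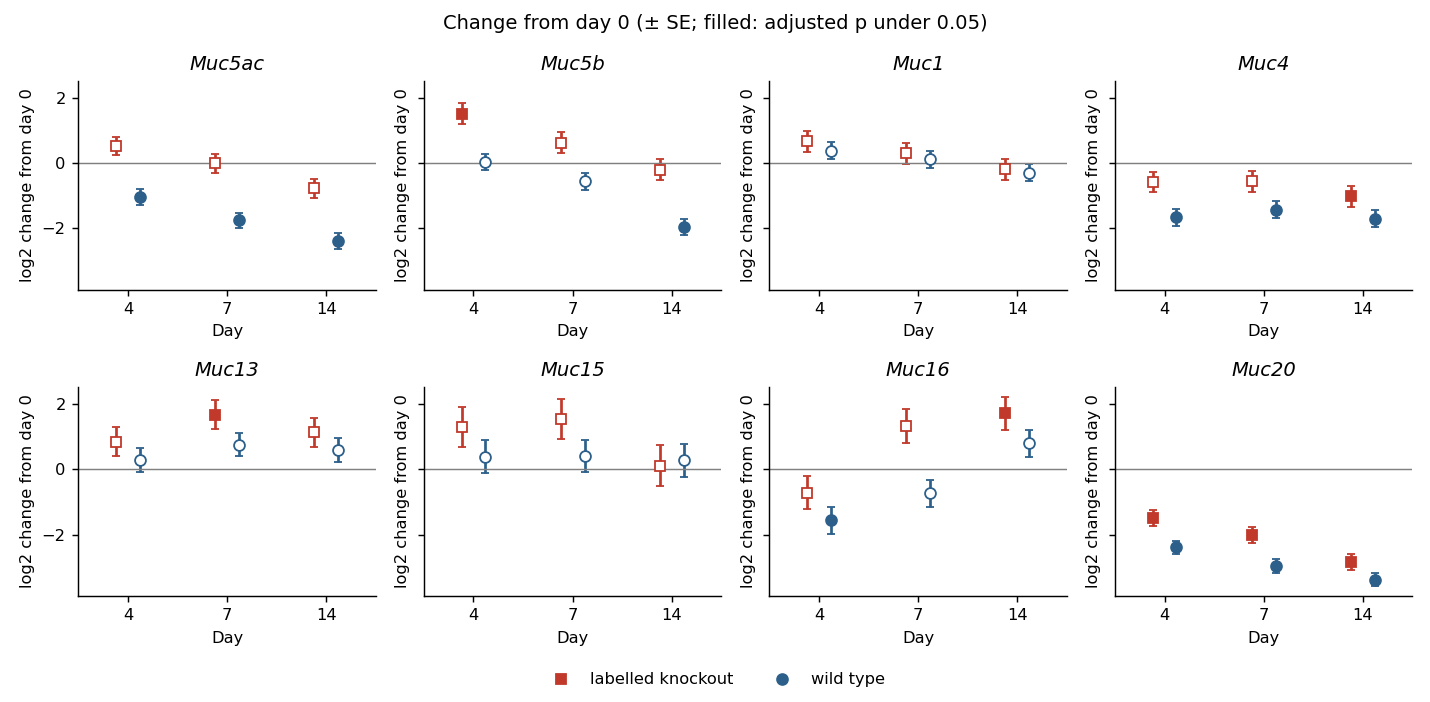
Log2 change from day 0 at days 4, 7 and 14 for each mucin, with bars of ± 1 SE from limma. Squares on the left are labelled knockout, circles on the right wild type, and filled symbols have an adjusted p under 0.05. Muc20 falls in both genotypes, Muc5ac falls in wild type, and Muc13 and Muc16 have filled points above 0 in labelled knockout.

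Genes that process, regulate or accompany mucins were counted by list, beside 2.2%, 1.15%, 1.64% and 4.21% of all genes called between genotypes on days 0, 4, 7 and 14. Of 7 tested entries for other mucins and mucin-like glycoproteins, 1 was lower at day 0 and 0 were called by limma or edgeR later. Their median differences were -0.35, -0.14, -0.15 and 0.05 on days 0, 4, 7 and 14, against 0.03, 0.02, -0.02 and -0.01 over all genes tested, with 4, 2, 1 and 1 at an unadjusted p under 0.05, and DESeq2 called 1, at day 4. Muc2, the gel-forming mucin of the intestine, is deposited under 3 identifiers that may share reads and are uncertain. The lowest of them (ENSMUSG00000095400) gave the call, at 0.480 ± 0.439 CPM in labelled knockout and 2.48 ± 0.399 CPM in wild type (-1.67 ± 0.31, adjusted p 0.0061), and it was lost without labelled knockout day 0 replicate 1. Without labelled knockout replicate 2 or wild type replicate 1 of day 0 the count was 3, and without wild type day 4 replicate 1 it was 1 at day 4. The most abundant (ENSMUSG00000025515) had 3.29 and 20.6 CPM in labelled knockout at day 0, against 22.5, 36.2 and 71.8 CPM in wild type, which lay apart and were not called. On the later days it stayed at or under 4.00 CPM in every library.

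Of 32 tested enzymes that build mucin-type O-glycans, 2 were higher at day 0 and 1 at day 14, with 0 called at days 4 and 7 by limma, edgeR or DESeq2, where 6 and 6 had an unadjusted p under 0.05. Over all genes 2.2% were called at day 0 and 4.21% at day 14. Gcnt3, which makes the branched core 2 and core 4 glycans of secreted mucins, averaged 26.4 ± 3.94 CPM in labelled knockout and 6.61 ± 4.69 CPM in wild type at day 0 (2.14 ± 0.47, adjusted p 0.0198). Gcnt1, a core 2 enzyme, averaged 166 ± 19.9 and 83.9 ± 12.9 CPM (0.99 ± 0.23, 0.0271). Fut1, a fucosyltransferase, averaged 21.6 ± 4.41 CPM in labelled knockout and 6.55 ± 3.14 CPM in wild type at day 14 (1.76 ± 0.47, 0.0417). The day 0 count was 0 without labelled knockout replicate 1 or wild type replicate 3 and 1 without wild type replicate 2, and the day 14 count was 0 without labelled knockout replicate 1 or 2 or wild type replicate 2 or 3. Without labelled knockout day 4 replicate 1 the day 4 count was 1. The list's medians were 0.16, 0.14, 0.18 and -0.00 on the 4 days.

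Of 28 tested genes of mucin regulation and secretion, 1 was higher at day 0, 0 were called by limma or edgeR at days 4 and 7, and 2 were lower at day 14, beside 2.2% of all genes called at day 0 and 4.21% at day 14. Stx11, a syntaxin of membrane fusion, averaged 15.2 ± 3.29 CPM in labelled knockout and 6.28 ± 1.46 CPM in wild type at day 0 (1.22 ± 0.31, adjusted p 0.0462). At day 14 Unc13d, a granule-priming factor, averaged 7.42 ± 1.70 CPM in labelled knockout and 19.04 ± 2.43 CPM in wild type (-1.31 ± 0.24, 0.00433). Foxa2, a forkhead factor that restrains goblet cell differentiation in mouse airways, averaged 9.48 ± 0.675 and 22.4 ± 2.05 CPM (-1.19 ± 0.27, 0.0179). The medians were -0.13, -0.05, -0.01 and 0.06. The day 0 count was 0 without labelled knockout replicate 1 or any wild-type library, and the day 14 count was 0 without labelled knockout replicate 1 and 1 without its replicate 2 or wild type replicate 2 or 3. At days 4 and 7, 2 and 4 genes had an unadjusted p under 0.05, and DESeq2 called 1 on each day. Without wild type day 4 replicate 1 the day 4 count was 2.

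Of 13 tested goblet products other than mucins, 1 was higher and 2 lower at day 0, 1 was lower at day 4, 2 were higher and 1 lower at day 7, and 1 was lower at day 14, beside 2.2%, 1.15%, 1.64% and 4.21% of all genes called. Bpifb1, a secreted lipid-binding protein, was called lower on each day, averaging 4.54 ± 0.672, 2.17 ± 0.343, 2.28 ± 0.159 and 2.74 ± 1.05 CPM in labelled knockout, against 32.4 ± 11.4, 20.03 ± 6.66, 19.3 ± 6.83 and 46.4 ± 11.1 CPM in wild type. Fcgbp, a mucus protein that associates with gel-forming mucins, averaged 66.5 ± 48.2 CPM in labelled knockout and 275.6 ± 43.8 CPM in wild type at day 0 (-2.25 ± 0.43, adjusted p 0.00765). Tff1, a trefoil peptide, averaged 9.81 ± 5.88 and 0.460 ± 0.373 CPM at day 0 (3.39 ± 0.37, 8.06e-05). At day 7 the lectin Itln1 averaged 64.03 ± 55.9 CPM in labelled knockout and 2.43 ± 0.412 CPM in wild type (4.13 ± 0.96, 0.0389), and Clca3, a secreted goblet cell protein, 150.2 ± 11.6 and 48.1 ± 2.81 CPM (1.63 ± 0.37, 0.0345). Without any 1 of the 5 day 7 libraries the day 7 count was 1. The day 0 count was 5 without labelled knockout replicate 2, and the day 4 count 3 or 2 without labelled knockout replicate 1 or 2. The list's medians were -0.29, 0.80, 0.43 and 0.18.

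For each mucin the genes whose log2 level followed it most closely over the 20 libraries were found among 11572 candidates with a mean of at least 2 CPM. For Muc5ac they were Pigr (Pearson r 0.940), Anpep (0.927) and Pik3r1 (0.904). For Muc5b they were Cacnb2 (0.866), Mtus1 (0.854) and Chad (0.852), and for Muc1 they were Ap1b1 (0.925), Pnpla2 (0.860) and Pigb (0.859). For Muc4 they were Nlrp10 (0.914), Has2 (0.909) and Tnip3 (0.902), and for Muc20 they were Cpm (0.971), Stk24 (0.969) and Fam198b (0.967). For Muc13 they were Rab37 (0.881), Camk1d (0.859) and Cybb (0.851), for Muc15 Gyk (0.814), Neurl3 (0.807) and Slfn2 (0.797), and for Muc16 Serpinb11 (0.804), Cryz (0.783) and the goblet product Clca3 (0.779). Among the mucins, Muc5ac followed Muc20 (0.722) and Muc5b (0.709), Muc13 followed Muc15 (0.658), and Muc5b and Muc13 ran opposite to each other (-0.715). These values describe libraries that share genotype, day and scaling.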

How the data were processed

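Reads of polyA RNA (TruSeq v2 libraries, per the labels' protocols) were available as the authors' deposited signal per gene, which per the file headers is normalized. The submitters' processing notes name STAR 2.3.0e, DESeq2 1.4.5 and build mm10; no counting tool or strand setting is named. Each value equalled a whole number of reads, within 0.1 reads, times a step fixed per library, and those reads were recovered (3.27 M to 31.5 M a library). The authors also deposited log2 fold changes with adjusted p-values, taken as theirs.

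Scaling used TMM factors over 20 libraries. Genes with 0.5 CPM or more in at least 2 libraries (15738) were fitted as log2(CPM + 0.5) in limma 3.58.1 (R 4.3.3; trend, robust, 8 group means), with adjustment over all genes and calls at an adjusted p under 0.05. Calls in groups of 2 rest on the spread shared over groups. edgeR 4.0.16 and DESeq2 1.42.0 on recovered reads, other settings and each library left out were alternatives. Positions are from GENCODE vM21 (GRCm38), in which 36602 identifiers were found.

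Same-number pairs of genotypes on a day deviated together (8 of 8 correlations over 0.1, 0.337 to 0.675, median 0.507, 7869 genes). The 2 knockout libraries of a day deviate from their mean by opposite amounts, so these correlations are not independent of each other. Results of a fit with replicate number as a block are printed where they change a genotype call. Members, lists and named genes (all members; per list and comparison, up to 4 called genes a direction averaging at least 2 CPM in the higher group; per mucin the 3 most correlated genes) were chosen with earlier results of these data known. Scripts for many genes were tested on simulated data.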

Additional observations from a re-analysis of the deposited data

Results flagged for a closer look

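The change from day 0 to day 14 passed a test of the difference between genotypes for both secreted mucins, narrowly. For Muc5ac the change in labelled knockout minus that in wild type was 1.61 on the log2 scale (adjusted p 0.0488), and for Muc5b it was 1.75 (0.0471). In both cases the larger fall was in wild type, which began higher at day 0. Of 17 alternatives, the call was lost in 12 for Muc5ac and in 13 for Muc5b, edgeR among them (adjusted p 0.103 and 0.116). Groups of 2 and 3 libraries are too small for a test of single outlying libraries.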

How the results depend on the processing

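Of 29 called results for single mucins, 17 kept their call and direction in every alternative, and none turned its direction; of 75 not called, 17 passed in at least 1. With 2 knockout libraries a day and adjustment over all genes, counts of 1 to 3 calls move easily. With each library left out in turn, mucins called between genotypes ranged from 0 to 2 at day 4 and 1 to 2 at day 14. In labelled knockout against day 0 they ranged from 1 to 3 at day 4, 1 to 2 at day 7 and 1 to 3 at day 14. For the difference in change they ranged from 0 to 1 at days 4 and 14. Other mucins ranged from 0 to 3 at day 0 and 0 to 1 at day 4. O-glycan enzymes ranged from 0 to 3, 0 to 1 and 0 to 1 at days 0, 4 and 14, and regulation and secretion genes from 0 to 1, 0 to 2 and 0 to 3. Goblet products ranged from 2 to 5, 1 to 3 and 1 to 1 at days 0, 4 and 7.

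DESeq2 called 3.67%, 2.3%, 3.33% and 5.49% of all genes between genotypes on days 0, 4, 7 and 14. For edgeR the shares were 1.66%, 1.05%, 1.32% and 2.8%. With the libraries of each day alone they were 0.0571%, 0.415%, 3.03% and 5.13%. No shares over all genes are given for the other scaling, filter and pseudocount settings or with libraries left out. With DESeq2 the mucins called were 4 at day 7 and 1 for the change to day 4 and to day 7. DESeq2 called 0 and 1 other mucins at days 0 and 4, 1, 1 and 4 regulation and secretion genes at days 4, 7 and 14, and 5, 3 and 2 goblet products at days 0, 4 and 14. edgeR called 0 mucins for the change to day 14, 0 other mucins at day 0, 0 O-glycan enzymes at days 0 and 14, 0 regulation and secretion genes at day 0 and 2 goblet products at day 4. With the libraries of each day alone, 1, 0 and 4 mucins were called at days 0, 4 and 7, 0 and 1 other mucins at days 0 and 4, 0, 1 and 2 O-glycan enzymes at days 0, 7 and 14, 0 and 1 regulation and secretion genes at days 0 and 7, and 0 and 3 goblet products at days 0 and 14. With library size scaling 5 mucins were called in labelled knockout at day 7 against day 0, 1 O-glycan enzyme and 0 regulation and secretion genes at day 0. Without the filter 0 mucins were called for the change to day 14, 0 O-glycan enzymes at day 14, 0 regulation and secretion genes at day 0 and 1 goblet product at day 7. With a pseudocount of 2, 4 mucins were called in labelled knockout at day 7 against day 0 and 2 other mucins at day 0.

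With the replicate block, mucins called were 4 between genotypes at day 7 and 4 in labelled knockout at day 4 against day 0. In these comparisons 2.13% and 26.2% of all genes were called. Between genotypes, 2 O-glycan enzymes were called at day 14, and 2 and 4 regulation and secretion genes at days 0 and 14. On days 0 and 14 the block called 3.16% and 4.89% of all genes. It gave limma calls to Muc1 and Muc15 in labelled knockout at day 4 against day 0 (adjusted p 0.0436 and 0.0251), Muc15 at day 7 (0.00722), Muc5ac at day 14 (0.0411) and Muc5b in wild type at day 7 (0.0453). The block took each number as shared by all days and both genotypes, while the main fit took none as pairs. Across days 21 of 30 same-number correlations passed 0.1. These correlations depend on each other, since the 2 knockout libraries of a day deviate from their mean by opposite amounts. The block changed no genotype call of a mucin other than those named above. Without both day 4 libraries numbered 1, 0 mucins, 1 O-glycan enzyme, 1 regulation and secretion gene and 3 goblet products were called at day 4, and 1 mucin for the change to day 4. Without the second knockout library of every day, chosen after the data were seen, mucins called were 1 at day 4, 1, 1 and 1 in labelled knockout against day 0 at days 4, 7 and 14, and 0 for the change to day 14. It gave 2 other mucins at day 0, 0 O-glycan enzymes at day 14, 0 and 1 regulation and secretion genes at days 0 and 14, and 6, 3, 1 and 2 goblet products on the 4 days. The cause of these shifts was not tested. Depth limits Muc15, Muc16 and Muc13 most, with 4, 4 and 10 reads in their lowest libraries.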

Other observations

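The genes around the mucins also moved with time in both genotypes. In wild type at day 14 against day 0, 7 of 7 tested entries for other mucins and mucin-like glycoproteins fell, with a median of -2.74 against 0.00 over all genes, and in labelled knockout 5 of 7 fell, with a median of -2.11 against -0.02. Among all genes 18.5% fell in wild type and 17.7% in labelled knockout. The tested entries include every deposited identifier of Muc2, which may share reads, so these counts and medians are not over separate genes. Muc2 (ENSMUSG00000025515) fell by 2.57 ± 0.67 in labelled knockout (adjusted p 0.00704) and by 4.92 ± 0.54 in wild type. Mcam, an adhesion molecule counted in the same list, fell by 2.11 ± 0.39 in labelled knockout and 2.74 ± 0.32 in wild type. Cd164, a sialomucin, fell by 0.87 ± 0.29 in labelled knockout and 1.19 ± 0.23 in wild type.

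Of the 32 O-glycan enzymes, 16 fell and 0 rose in labelled knockout at day 14, and 14 fell and 2 rose in wild type. Among all genes 17.7% fell and 14.3% rose in labelled knockout, and 18.5% fell and 21.8% rose in wild type. B3gnt3, which extends core 1 glycans, fell by 1.39 ± 0.20 in labelled knockout and 1.19 ± 0.16 in wild type (adjusted p 5.24e-05 and 1.64e-05). St3gal1, a sialyltransferase that caps core 1, fell by 1.43 ± 0.29 in labelled knockout and 1.18 ± 0.24 in wild type (0.00115 and 0.000733). These genes were chosen after their values were seen.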
